A study of Mus musculus with 6 samples.

Results

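Immunoglobulin constant chains and the J chain were examined in single-cell RNA sequencing of the mouse proximal pulmonary artery (PA). The set held 10 of the 53647 genes listed, chosen by symbol: the heavy chains Ighm, Ighd, Igha, Ighg1, Ighg2b and Ighg2c, the light chains Igkc, Iglc1 and Iglc2, and Jchain. An antibody joins heavy and light chains, each with a variable part that binds antigen and a constant part that sets the class. Resting B cells make IgM (Ighm) and IgD (Ighd) from a common transcript. Class switching then joins the same variable part to a downstream constant gene, giving IgG or IgA. B cells that turn into plasma cells devote much of their RNA to these chains, and Jchain encodes the small protein that links IgM pentamers and IgA dimers.

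The libraries came from wild-type C57BL/6J mice with no allele or drug treatment. There were 2 young libraries, both of 3 months (young 2 labelled female), and 4 old libraries, of 20 months (old 1), 24 months (old 2), 28 months (old 3, labelled female) and 27 months (old 4, labelled male). Each library was taken as 1 animal. The main PA was excised with tissue around it and digested with collagenase and elastase, so B cells may come from neighbouring tissue such as lymph node. Barcodes with at least 500 UMIs (unique molecular identifiers, 1 per captured RNA), at least 300 genes and at most 20% mitochondrial UMIs were kept as cells. A kept cell with at least 2 UMIs over the B cell genes Cd79a, Cd79b and Ms4a1 was called a B cell, and the rest are called other cells. Near-empty barcodes held 2 to 100 UMIs and carry mostly RNA free in the suspension. The remaining barcodes had over 100 UMIs but missed a limit for cells.

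The libraries held 6355125 to 50436562 UMIs and 935 to 4067 kept cells. B cells numbered 1040 and 15 in young 1 and young 2, and 9, 650, 276 and 37 in old 1 to old 4. As a share of kept cells they averaged 19.9% ± 25.9 (SD, n = 2) in young against 7.79% ± 10.3 (SD, n = 4) in old, which differed by -12.1 points (two-sided exact permutation test, p = 0.4). Their median depth ran from 643 UMIs in young 2 to 7757.5 in old 3. Of the B cell markers outside the gate Cd22, Pax5, Ebf1 and Fcmr, every library's B cells showed all 4, other than young 2, where Cd22 was at 0. B cells that also held 2 or more UMIs of another cell class made up 8.08% and 26.7% in young 1 and young 2. In old 1 to old 4 they made up 11.1%, 19.5%, 81.2% and 64.9%. These shares were not thinned, and the median B cell held 7757.5 UMIs in old 3 and 4130 in old 4, against 812.5 in young 1. Young 1, young 2 and old 2 shared 131 to 215 kept barcodes per pair, where chance would give 0.375 to 1.15. Other pairs shared at most 4. The kept B cells themselves shared 1 barcode, between young 1 and young 2. Xist and the Y-linked Ddx3y each had at least 204 UMIs in 5 libraries. They had 3081 and 8304 UMIs in old 1 and 1283 and 204 in young 2, whereas old 3 had 21721 and 3. The Y-linked Eif2s3y, Kdm5d and Uty did not follow Ddx3y in old 1, at 23, 16 and 76 UMIs. In old 4, where Ddx3y had 6228 UMIs, they had 1977, 530 and 2350.

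The kappa constant gene Igkc was listed at 0 UMIs in all 6 libraries, although kappa variable genes (Igkv) had 50 to 2193 UMIs per library. Most mouse B cells carry kappa chains, so this entry cannot be read as an absence. Igkc lies at chr6:70726435-70726966 (GRCm38, plus strand), wholly inside the long noncoding gene Gm30211 at chr6:70719074-70740554 on the same strand. Of 5373 genes placed inside another gene on their own strand, 5364 were listed at 0, or 99.8%, against 12.1% of 46720 others. Among immunoglobulin J and C genes, all 7 inside another gene were at 0 and none of 20 others was. Gm30211 itself had 239 UMIs in young 1, 94 in young 2 and 3, 243, 417 and 47 in old 1 to old 4. No kappa to lambda ratio was therefore computed, and the lambda share of light chains fixed in the design has no value here. These positions come from GENCODE M21 on GRCm38, matched on identifiers with the version left out, because 99.9% of matched identifiers in the files carry a later version.

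The heavy-chain genes stand in 1 cluster on chromosome 12, minus strand: Ighm at chr12:113418558-113422730, Ighd at chr12:113406604-113416324, Ighg1 at chr12:113325240-113330523, Ighg2b at chr12:113302965-113307933, Ighg2c at chr12:113285325-113288932 and Igha at chr12:113254830-113260236. Iglc1 (chr16:19061618-19062071) and Iglc2 (chr16:19198396-19200351) are on the minus strand of chromosome 16, and Jchain is at chr5:88519809-88527891, minus strand. An antisense gene, 2010309G21Rik, runs across Iglc1 on the plus strand and had 1345 UMIs in all.

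The lambda constant genes are related in sequence, which may bear on which of them a read is assigned to. The last 60 coding bases of 3 of them, from the GENCODE M21 models and 5′ to 3′, are shown because 3′ reads start near them, and capitals mark the positions at which the 3 differ.
Iglc1: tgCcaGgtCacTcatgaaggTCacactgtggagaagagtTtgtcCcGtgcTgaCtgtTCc
Iglc2: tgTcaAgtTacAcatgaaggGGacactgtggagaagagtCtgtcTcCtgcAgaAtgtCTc
Iglc3: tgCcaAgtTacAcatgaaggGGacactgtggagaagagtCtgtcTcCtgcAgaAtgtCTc
Iglc2 and Iglc3 differed at 11 of 314 coding bases and at 1 of the last 60. Iglc1 differed from Iglc2 at 76 of 312 aligned coding bases (global alignment, 8 further bases in gaps) and at 13 of the last 60. Over coding bases, Iglc2 and its near copy Iglc3 are thus hard to tell apart, and Iglc1 is better set apart. Transcript bases past the coding end were not compared, and how reads were split between these genes was not tested.

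**Figure D1:**
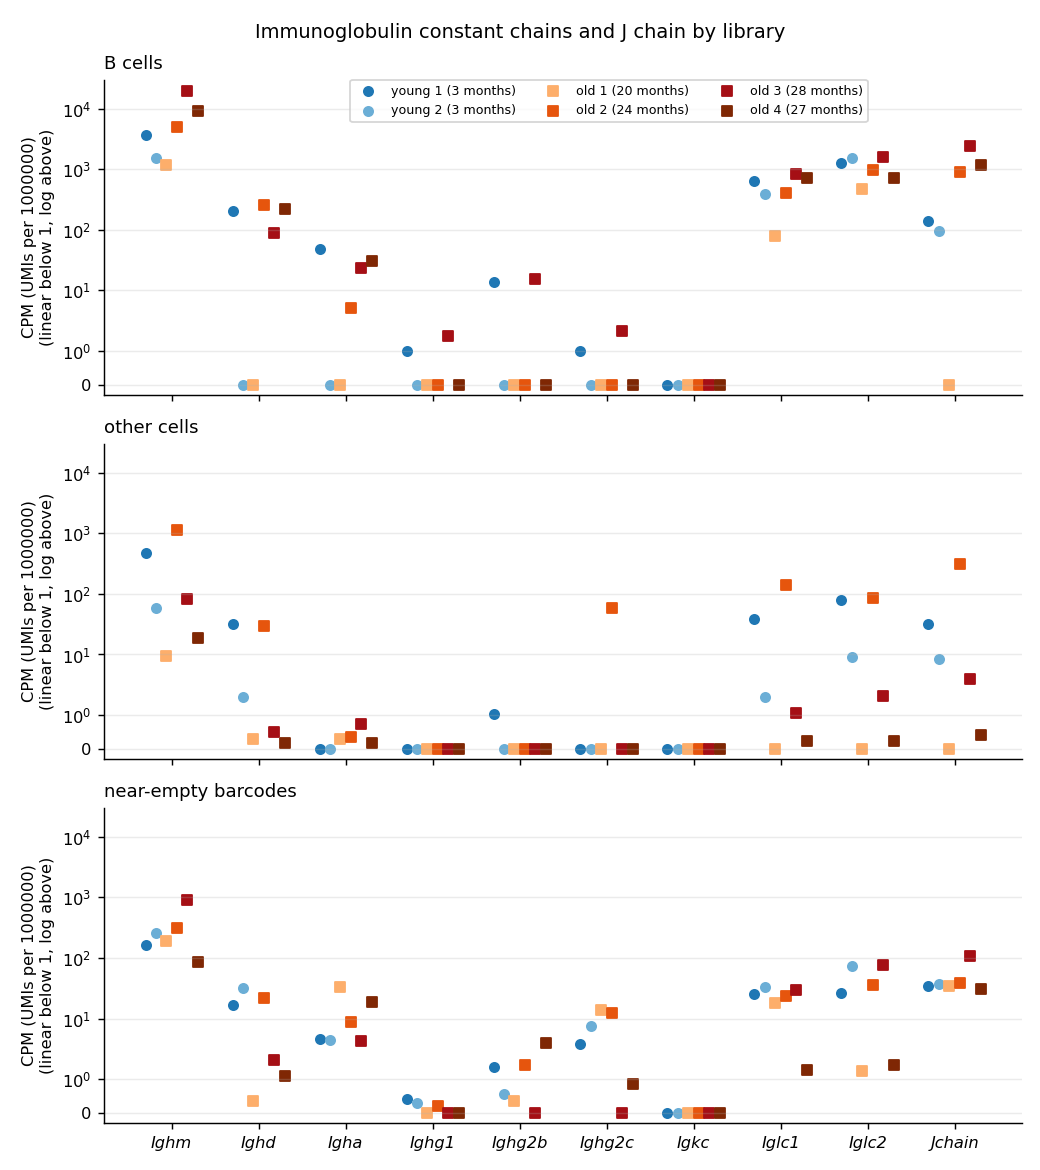
UMIs per 1000000 UMIs (CPM) of each member (x axis) in each library (circles young, squares old) for B cells, other cells and near-empty barcodes, on an axis that is linear below 1 and logarithmic above. Ighm was the highest member in each kind and library, level with Iglc2 in the B cells of young 2. Igkc sat at 0 throughout, and Jchain in B cells stood at or below 138 in both young and at or above 906 in old 2, old 3 and old 4.

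In B cells the unswitched chain Ighm dominated. Levels are given as CPM, the UMIs of a gene per 1000000 UMIs of all genes, summed over the cells of 1 kind in a library. Ighm was at 3649 and 1556 CPM in young 1 and young 2, and 1153, 4940, 19413 and 9047 in old 1 to old 4. Old 2, old 3 and old 4 lay above both young libraries and old 1 lay below them, so the groups overlapped. An Ighm UMI was found in 86.3% of B cells in young 1, in 9 of 15 in young 2 and in 77.8%, 79.1%, 97.8% and 94.6% of old ones. With each cell thinned to 500 UMIs, the shares became 72.1% and 46.7% in young and 33.3%, 68.3%, 84.4% and 78.4% in old. In old 4, 928 of 1749 Ighm UMIs came from 1 barcode.

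Ighd, the other chain of resting B cells, stood at 201 and 0 CPM in young B cells and at 0, 257, 89.0 and 217 in old. The 2 libraries at 0 were the ones with 15 and 9 B cells. As a share of Ighm plus Ighd UMIs, Ighd averaged 2.62% ± 3.70 (SD, n = 2) in young. The old average was 1.94% ± 2.25 (SD, n = 4). The difference of -0.681 percentage points was smaller than the spread (two-sided exact permutation test, p = 0.933). The two-sided exact permutation tests used here cannot go below p = 0.13 for 2 against 4 libraries. Over the 6 such tests of shares reported here, the values adjusted by Benjamini-Hochberg ran from 0.8 to 0.933.

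Switched chains were rare in B cells. Igha (IgA) had 48 and 0 UMIs in young B cells, 47 of the 48 in 1 barcode of young 1, and 0, 3, 53 and 6 in old ones. Ighg2b (IgG2b) had 14 and 0 UMIs in young and 0, 0, 35 and 0 in old, with 22 of the 35 in 1 barcode of old 3. Ighg1 (IgG1) had 1 UMI in young 1 and 4 in old 3, Ighg2c (IgG2c) had 1 and 5 in the same libraries, and neither was found in B cells of the other 4. Outside the set, Ighg3 had 40 UMIs in young 1 and 270 in old 3, where 36.2% of B cells held it, and Ighe had 0 in every library's B cells.

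The 4 switched chains of the set together were 1.63% of heavy-chain UMIs in young 1 (95% Wilson interval 1.28 to 2.08) and 0 of 16 UMIs in young 2, which allows up to 18.8%. In the old libraries they were 0 of 29 (up to 10.3%), 0.0994% (0.0338 to 0.292), 0.216% (0.177 to 0.264) and 0.334% (0.153 to 0.727). Intervals and limits here cover counting error only. The means were 0.815% ± 1.15 in young (SD, n = 2) and 0.162% ± 0.145 in old (SD, n = 4), a difference of -0.653 points (two-sided exact permutation test, p = 0.667). Without the barcode richest in switched UMIs, young 1 stood at 0.438% and the difference was -0.0537 points. At 1000 UMIs and 500 genes per cell it was -2.96 points. B cells with a switched chain and no unswitched one numbered 3 of 1040 in young 1, 1 of 650 in old 2 and 3 of 276 in old 3. After thinning, their mean share among B cells with a heavy chain was 0.189% in young and 0.0530% in old, a difference of -0.136 points (two-sided exact permutation test, p = 0.667). In old 3, 51 of the 54 B cells with a UMI of these 4 chains held an unswitched UMI too. Ighg3 is a switched chain as well but lies outside the set and is not counted in these shares. It had 40 UMIs in young B cells and 280 in old ones.

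Both lambda constant genes were read in every library's B cells. Iglc1 had 635 and 389 CPM in young and 79.5, 408, 849 and 724 in old. Iglc2 had 1267 and 1556 in young and 477, 960, 1577 and 729 in old, and the groups overlapped for both genes. The near copy Iglc3 had 625 and 486 in young and 119, 512, 1229 and 424 in old. A UMI of Iglc1 to Iglc4 was present in 71.2% of B cells of young 1 and in 93.8% of those of old 3. Of these 2 libraries' B cells, 250 and 203 held both a lambda constant UMI and a kappa variable UMI. Only 28 of 1040 B cells in young 1 and 192 of 276 in old 3 held 10 or more lambda constant UMIs, at unlike depth (median 812.5 and 7757.5 UMIs). After thinning to 500 UMIs per cell, 8 and 3 cells did. The shares with any lambda constant UMI were then 57.7% and 69.2%.

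Jchain had the largest fitted difference between ages of the 7 members tested in B cells. Its level was 138 and 97.3 CPM in young 1 and young 2, the latter from 1 UMI, and 906, 2451 and 1190 in old 2, old 3 and old 4. It was at 0 in the 9 B cells of old 1, where 3 UMIs would equal 119 CPM. It was read in 20 B cells of young 1 (1.92%), 19 of old 2 (2.92%), 122 of old 3 (44.2%) and 3 of old 4 (8.11%), where 1 cell held 131 of 230 UMIs. After thinning, the share in old 3 was 16.3%. Per 100 Ighm UMIs, Jchain had 3.77 in young 1, 18.3 in old 2, 12.6 in old 3 and 13.2 in old 4. The B cells of old 3 included 12 barcodes with at least 2 of the plasma cell genes Mzb1, Derl3 and Tnfrsf17, against 1 in old 2 and 0 in the B cells of other libraries. Outside B cells, 1 other cell of young 1 and 1 remaining barcode of old 2 met this. Mzb1 was listed at 0 in all libraries, so these counts rest on cells with both other genes. They were made without thinning and at unlike depth: the median B cell held 7757.5 UMIs in old 3, 753 in old 2 and 812.5 in young 1. Whether such cells set the level of Jchain was not tested.

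The old and young libraries were compared by edgeR's quasi-likelihood test on UMIs summed per library, with Benjamini-Hochberg adjustment over all genes with at least 10 UMIs. For B cells the fit left out old 1, which had fewer than 10 such cells, so it set 3 old against 2 young libraries. It called 33 of 13402 genes (0.246%) at an adjusted p under 0.05, 18 higher (0.134%) and 15 lower in old (0.112%). Genes of other cell classes were among those called higher, such as the smooth muscle marker Tagln. The 5 smooth muscle markers summed to 6.98 and 0 CPM in B cells of young 1 and young 2. They summed to 13.8, 291 and 3709 in old 2, old 3 and old 4. The calls thus cannot be read as changes within B cells, and whether RNA of other cells set them was not tested. Of the 7 members tested, none was called. At an unadjusted p under 0.05, 876 genes passed, Jchain and Ighm among them. Jchain was 3.60 higher in old on the log2 scale (SE 1.00, edgeR adjusted p = 0.0831) and above both young libraries in 3 of 3 old ones. Each fitted old library lay above both young for 2 of the 7 members, Jchain and Ighm, as for 20.7% of all genes tested. None of the 7 had each old library below both young, a pattern of 5.17% of genes.

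The Jchain difference passed the threshold under 2 alternatives, library sizes without TMM scaling and DESeq2, with adjusted p of 0.00436 and 0.0305. Over 18 alternatives it ranged from 3.09 to 5.16 and the adjusted p from 0.00436 to 1. Ighm was 2.10 higher in old (SE 0.947, edgeR adjusted p = 0.641), Ighd 0.24 (SE 0.758) and Iglc1 0.36 (SE 0.815). Iglc2 differed by -0.04 (SE 0.830), Ighg2b by -1.01 (SE 1.08) and Igha by -1.33 (SE 0.783). The median over all genes was 0.16. Young 2 entered with 10281 B cell UMIs, and without it no gene was called in B cells at an adjusted p under 0.05. Without old 2, the count was 317.

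**Figure D2:**
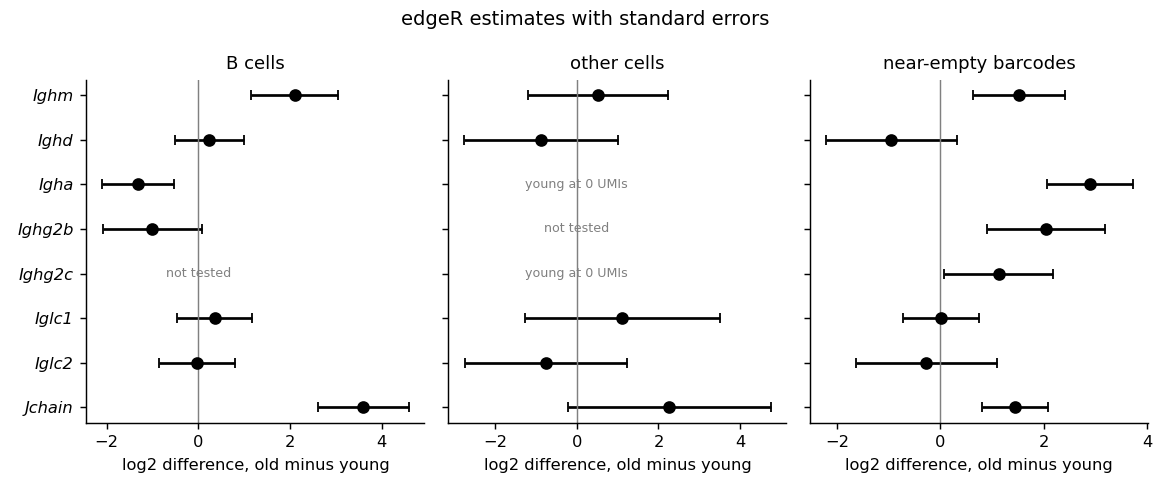
Log2 difference, old minus young, for each member tested (points) with its standard error (bars) from edgeR in B cells, other cells and near-empty barcodes. Jchain in B cells and Igha in near-empty barcodes lay farthest from 0 among the estimates drawn, and members at 0 UMIs in the young libraries are named in place of a point.

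Genes around these chains were described from 5 lists. In B cells, 0 of 16 B cell identity genes, 0 of 12 plasma cell genes tested, 0 of 13 class switching and germinal centre genes, 0 of 9 memory genes and 0 of 9 receptor and transport genes tested were called, beside 0.246% of all genes. Their median log2 differences were 0.02, 0.81, -0.06, 0.12 and 0.61, against 0.16 over all genes. Sec11c, a signal peptidase subunit and the plasma cell gene with most UMIs, was at 210 and 0 CPM in young B cells and 79.5, 157, 597 and 274 in old. Cd74, the invariant chain of MHC class II, had the most UMIs of the identity list, at 6115 and 4961 in young and 8074, 5498, 7280 and 6745 in old. Mki67, a proliferation marker, led the switching list at 39.9 and 97.3 in young and 0, 31.0, 133 and 0 in old. Zbtb20, a factor of long-lived antibody-secreting cells, was at 403 and 195 in young and 636, 669, 1623 and 2198 in old (log2 difference 2.14, SE 0.903, edgeR adjusted p = 0.561). Fcgr2b, the inhibitory IgG receptor, was at 139 and 0 in young and 39.8, 112, 158 and 72.4 in old. Zbtb20 was not particular to B cells: other cells held 671 and 435 CPM in young and 671, 620, 1908 and 2235 in old.

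Variable genes gave the most distinct pattern within a library. In old 3, Igkv4-91 took 1053 of 1919 kappa variable UMIs in B cells (54.9%), spread over 102 cells, and Ighv12-3 took 148 of 233 heavy variable UMIs (63.5%), over 50 cells. Both were read in 37 cells. This heavy and light pair is known from B-1 cells that bind phosphatidylcholine, and it was singled out after its values were seen. A second pair, Ighv11-2 with Igkv14-126, went another way. Igkv14-126 was read in 17 B cells of young 1, 6 of old 2, 1 of old 4 and 0 of 276 in old 3. In near-empty barcodes of old 3, Igkv4-91 held 17 of 21 kappa variable UMIs. Whether free RNA adds to the B cells read with Igkv4-91 was not tested. Of the 102 cells with Igkv4-91, 101 held Ighm, 70 held Jchain and 18 held a switched chain. Igkv4-91 was found in 0.865% of B cells in young 1, 0.923% in old 2 and 37.0% in old 3, and the median B cell of these libraries held 812.5, 753 and 7757.5 UMIs. It was also found in 2 of 15 B cells of young 2 (13.3%), 1 of 37 of old 4 and 0 of 9 of old 1. In young 1 the leading genes took far smaller shares: Igkv4-91 held 9.60% of kappa variable UMIs and Ighv3-6 held 8.26% of heavy variable UMIs. In old 2, Igkv6-15 led with 158 of 440 UMIs in B cells and 264 of 673 in other cells. Ighv2-6 led the heavy genes there, with all 89 UMIs in 1 cell. In old 4 all 45 UMIs of the leading Igkv4-91 came from 1 cell, and young 2 and old 1 had 5 and 1 kappa variable UMIs in B cells.

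Outside the B cell gate the levels were lower and followed other lines. Ighm in other cells was at 474 and 59.2 CPM in young and 9.57, 1125, 82.7 and 18.8 in old. Jchain was at 32.4 and 8.46 in young and 0, 316, 3.98 and 0.418 in old. Iglc1 was at 38.7 and 1.95 in young and 0, 143, 1.10 and 0.225 in old, and Iglc2 at 79.5 and 9.11 in young and 0, 84.6, 2.06 and 0.225 in old. Ighd was at 31.4 and 1.95 in young and 0.290, 29.7, 0.503 and 0.161 in old. The 2 libraries with the most B cells, young 1 and old 2, were highest for all 5. Cells with 1 gate UMI fell outside the gate, and in young 1 their Ighm level, 3855 CPM, was close to the 4429 of cells with 2. The other libraries varied: cells with 1 gate UMI were lower in young 2 (247 against 595), old 1 (58.1 against 504) and old 2 (4559 against 6880) and higher in old 3 (1317 against 490) and old 4 (48.7 against 38.4). The order in old 3 rested on 1 barcode, which held 343 of the 437 Ighm UMIs at 1 gate UMI. In old 4 the level at 2 gate UMIs was 1 Ighm UMI in 3 cells.

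Igha was at 0 UMIs in both young libraries and at 1, 1, 16 and 5 UMIs in the old. Each old library was therefore above both young, as for 5.06% of all genes tested. No member had each old library below both young, against 17.0% of genes. The young other cells were far shallower in sum, and 3 UMIs in them would exceed the pooled old level (old to young ratio 0.446), so a difference in Igha was not detectable at this depth. Ighg2c had 165 UMIs in old 2, of which 163 came from 1 cell, and 0 in the other 5 libraries. Ighg2b had 2 UMIs in young 1, and Ighg1 had none. In the edgeR fit of other cells, 0 of 24075 genes were called (0.0%), 2815 had an unadjusted p under 0.05, and DESeq2 called 472. edgeR called none of the 7 members tested, and DESeq2 gave no adjusted p for them. Ighm was 0.53 higher in old (SE 1.71) and Iglc1 1.11 higher (SE 2.38), Jchain 2.27 higher (SE 2.49), Ighd differed by -0.88 (SE 1.89) and Iglc2 by -0.75 (SE 1.99), against a median of 0.13. Without old 2, Ighm differed by -2.57 and Jchain by -3.43. Ighm also turned to -0.389 without young 2 and to -0.712 at 1000 UMIs. The switched share of heavy-chain UMIs was 0.207% and 0 of 94 (up to 3.19%) in young and 2.86%, 4.79%, 0.872% and 0.842% in old. It was higher in 4 of 4 old libraries than in both young, by 2.24 points on average (two-sided exact permutation test, p = 0.13, the smallest that this test can give). The value of old 1 was 1 of 35 UMIs, and that of old 2 fell to 0.0908% without the Ighg2c cell. Without the barcode richest in switched UMIs in each library, the difference was 0.263 points (two-sided exact permutation test, p = 0.667).

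**Figure D3:**
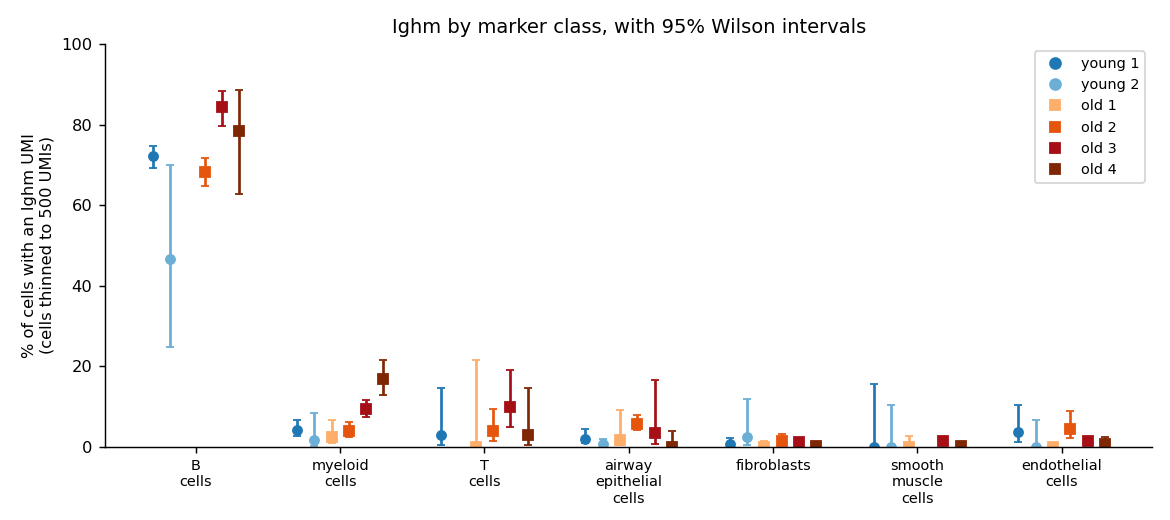
Share of cells with at least 1 Ighm UMI (y axis, percent) by marker class, each cell thinned to 500 UMIs, with 95% Wilson intervals (circles young, squares old; classes with under 10 cells are not drawn). Myeloid cells of old 4 and old 3 stood at 16.8% and 9.34%, above SMCs of the same libraries at 0.0413% and 1.30%.

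Among other cells, myeloid cells held Ighm more often than the vascular classes in old 1, old 3 and old 4. T cells did so in old 3 and old 4. In old 3, an Ighm UMI was read in 53.2% of 739 myeloid cells, 7.43% of FBs, 6.78% of SMCs and 5.48% of ECs, with median depths of 5568, 6268, 6634 and 3071 UMIs. In old 4 the shares were 63.9% of 280 myeloid cells, 0.337% of FBs, 1.16% of SMCs and 1.65% of ECs, with median depths of 6464, 5794, 9445 and 2966. After thinning to 500 UMIs, myeloid cells stood at 16.8% in old 4 (95% Wilson interval 12.9 to 21.6) and SMCs at 0.0413%, and in old 3 at 9.34% and 1.30%. T cells held an Ighm UMI in 29.6% of 71 cells in old 3 and 14.3% of 35 in old 4. After thinning, T cells stood at 9.86% in old 3, not below myeloid cells there, and at 2.86% in old 4, which was 1 of 35 cells. No myeloid cell held more than 15 Ighm UMIs in either library. Over all UMIs, the level in myeloid cells of old 3 was 249 CPM, below the 891 of its near-empty barcodes, and in old 4 it was 287 CPM against 84.9. In young 1 and young 2, 6.27% and 3.17% of myeloid cells held Ighm, with 930 and 780 UMIs in the median cell, and in old 1 and old 2 14.1% and 6.38%. In old 1 the other shares were 0% of FBs, 0.704% of SMCs and 0.176% of ECs. After thinning, myeloid cells of old 1 stood at 2.34% (95% Wilson interval 0.800 to 6.66) and these classes at 0. The interval of ECs reached 0.673%, and those of FBs and SMCs overlapped that of myeloid cells. Not all libraries showed the pattern: after thinning, myeloid cells and ECs stood at 4.18% and 3.70% in young 1 and at 3.83% and 4.40% in old 2, with overlapping intervals.

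The Ighm of the myeloid cells of old 3 and old 4 came with few lambda UMIs, whereas kappa constant RNA could not be read. In old 4, 526 Ighm UMIs stood beside 0 UMIs of Iglc1 and Iglc2 and 1 of Jchain, whereas the B cells of that library had 16.1 lambda UMIs and 13.2 Jchain UMIs per 100 Ighm. That Jchain value came from 3 of 37 B cells and does not describe the rest. Of its 230 UMIs, 1 cell held 131, and the barcode with 928 of the 1749 Ighm UMIs held 98. In old 3, myeloid cells had 0.870 lambda UMIs per 100 Ighm and B cells had 12.5. Ighd stood at 0.951 per 100 Ighm in myeloid cells of old 4 and at 2.40 in its B cells. The order was reversed in old 3, at 0.783 in myeloid cells and 0.458 in B cells. The free RNA of near-empty barcodes held 36.0 Jchain UMIs per 100 Ighm in old 4 and 12.2 in old 3, against 0.190 and 1.74 in myeloid cells. In old 2 the 31 Ighm UMIs of myeloid cells came with 5 lambda UMIs, and in old 1 the 19 came with 0, too few to compare. Where the Ighm of myeloid cells came from was not tested.

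Barcodes devoted to immunoglobulin were sought among those with over 100 UMIs, as barcodes with at least 20 UMIs and at least 10% of their UMIs in 14 chains (the set plus Ighg3, Ighe, Iglc3 and Iglc4). A barcode of this kind in more than 1 library was counted in each. This was so for 3 of 8 in young 1, 26 of 26 in young 2 and 24 of 45 in old 2. Counted in this way there were 115, of which 106 were led by Ighm, 8 by Igha and 1 by Ighg2c, and 112 held Jchain. The B cell gate took in 30 of them, 26 were other cells and 59 were remaining barcodes. None of the 8 led by Igha passed the limits for cells. In old 2, 24 of the 2218 other cells were of this kind and held 4569 chain UMIs, and 18 of the 24 had no UMI of the 3 gate genes. Plasma cells are known to lose Ms4a1, which encodes CD20 and is 1 of the 3 gate genes. Among the other cells of old 2, 0 held at least 2 of the plasma cell genes Mzb1, Derl3 and Tnfrsf17, of which Mzb1 was listed at 0. Whether the 24 were plasma cells was not tested.

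The richest barcode held 290 Igha and 15 Jchain UMIs among 390 UMIs (78.2% immunoglobulin) and came from old 4. It alone gave 290 of the 390 switched UMIs of that library. In old 2, 2 barcodes of 868 and 823 UMIs paired 120 and 78 Igha UMIs with 322 and 338 of Iglc1, and both had Ighv10-1 as the leading heavy variable gene and Iglv1 as the leading light one. In old 1, barcodes with 86 and 39 Igha UMIs held all 125 Igha UMIs of its remaining barcodes, and in old 3 a barcode of 518 UMIs had 106.

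Young 2 had 26 barcodes of this kind, 25 of them below the limits for cells, and all 26 were of this kind in another library too. At 23 of the 26, old 2 held more chain UMIs under the same barcode, and at 2 young 1 did. No barcode of old 1, old 3 or old 4 was repeated in this way. Of the member UMIs in the remaining barcodes of young 2, 25.3% fell on barcodes that were B cells of young 1 and 25.8% on B cells of old 2. Of the UMIs of all genes there, 6.30% and 4.31% did. In near-empty barcodes such shares of member UMIs were 15.2% in young 1 (B cells of old 2), 17.0% and 9.05% in young 2, and 15.5% in old 2 (B cells of young 1). For the UMIs of all genes they were 0.506% in young 1, 1.22% and 0.736% in young 2, and 0.921% in old 2. Whether the member UMIs moved between libraries was not tested.

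**Figure D4:**
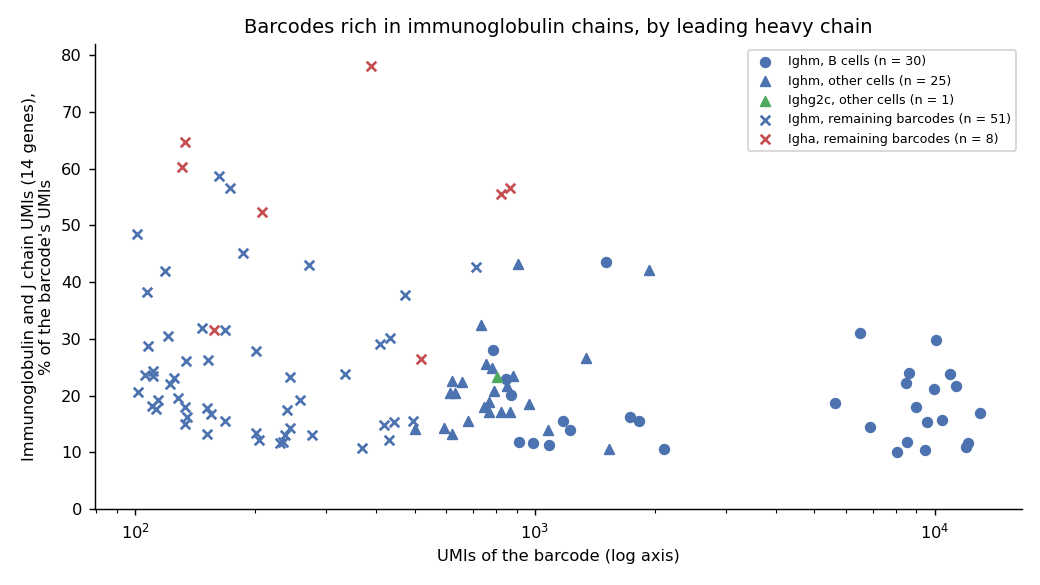
Share of a barcode's UMIs in 14 immunoglobulin and J chain genes (y axis, percent) against its total UMIs (x axis, log scale) for the 115 barcodes with at least 10%, coloured by leading heavy chain and shaped by kind of barcode. The 8 barcodes led by Igha all fell among remaining barcodes, up to 78.2%.

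In near-empty barcodes Ighm was at 162 and 262 CPM in young and 192, 314, 891 and 84.9 in old. In young 1 that was 4.43% of the level in B cells, and in young 2 16.9%. Jchain was even across 5 libraries, at 33.9 and 36.8 in young and 34.9, 39.2 and 30.6 in old 1, old 2 and old 4, with 109 in old 3. Iglc1 was at 25.9 and 32.8 in young and 18.0, 23.5, 29.3 and 1.42 in old, and Iglc2 at 26.3 and 73.3 in young and 1.38, 35.2, 75.3 and 1.70 in old. Ighd was at 16.8 and 31.7 in young and 0.346, 21.7, 2.09 and 1.13 in old. The 3 libraries that share barcodes were the highest for Ighd.

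Switched chains took a larger part of these near-empty barcodes than of the B cells in young 1, old 1, old 2 and old 4. In old 3 the intervals of the shares overlapped, at 0.128 to 1.68% against 0.177 to 0.264% in B cells. Near-empty barcodes of old 3 held 478027 UMIs of all genes, against 25133291 in its remaining barcodes. In young 2 the B cells had 0 of 16 UMIs, which allows up to 18.8%. Without the barcode with most switched UMIs, near-empty barcodes held 4.20% in young 1 and 2.33% in young 2. Igha had 23 and 16 UMIs in young (4.61 and 4.49 CPM) and 97, 41, 2 and 66 in old (33.5, 8.74, 4.18 and 18.7 CPM). Old 1, old 2 and old 4 were above both young libraries and old 3, with 2 UMIs, was below them. Ighg2c had 19 and 27 UMIs in young and 40, 59, 0 and 3 in old, in part from a few barcodes: 24 of the 40 in old 1 and 21 of the 27 in young 2 came from 1 barcode each. Ighg2b had 8 and 2 UMIs in young and 1, 8, 0 and 14 in old, and Ighg1 at most 2 in any library. The switched share was 5.52% and 4.20% in young, against 1.63% and 0 in their B cells, and 19.9%, 6.47%, 0.466% and 21.4% in old. The mean was 4.86% ± 0.930 in young (SD, n = 2) and 12.1% ± 10.2 in old (SD, n = 4), a difference of 7.20 points with 3 of 4 old libraries above both young (two-sided exact permutation test, p = 0.533).

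edgeR called 0 of 28699 genes between ages in near-empty barcodes (0.0%), with 3955 at an unadjusted p under 0.05 and 26 called by DESeq2. edgeR called none of the 8 members tested, and DESeq2 none of the 3 (Jchain, Ighm and Iglc2) for which it gave an adjusted p. Igha was 2.90 higher in old (SE 0.833, edgeR adjusted p = 0.294), Ighg2b 2.04 (SE 1.15), Ighm 1.52 (SE 0.893), Jchain 1.44 (SE 0.641) and Ighg2c 1.13 (SE 1.06). None of the 8 had each old library above both young (2.01% of genes) or below them (48.6% of genes). Iglc1 differed by 0.01 (SE 0.735), Iglc2 by -0.27 (SE 1.37) and Ighd by -0.95 (SE 1.27). The median over all genes was -0.42, and -1.46 without TMM scaling, so differences are best read against it. Igha kept its sign in 14 alternatives, from 1.87 to 3.57, with adjusted p from 0.0462 (without old 4) to 1. In the same barcodes 0 of 12 plasma cell genes tested were called, with a median of 1.08. Xbp1, a factor needed for secretion by plasma cells, led that list at 20.5 and 25.5 CPM in young and 35.6, 31.6, 66.9 and 42.2 in old.

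In each old library the remaining barcodes held the highest switched share of the kinds, at 56.8%, 10.2%, 4.01% and 69.6%. In young 1 and young 2 they held 0.255% and 2.99%, below the 5.52% and 4.20% of near-empty barcodes. These barcodes were not part of the tests, and the shares of old 1 and old 4 rested on 2 and 1 barcodes as given above. Without the barcode with most switched UMIs in each library, the remaining barcodes held 28.9%, 5.10%, 2.46% and 4.44% in old 1 to old 4. Near-empty barcodes treated in the same way held 17.0%, 5.17%, 0.234% and 20.4%, so the order then held in old 1 and old 3 alone. Over all barcodes of a library, B cells held 58.8% of member UMIs in young 1, 0.943% in young 2, and 3.58%, 28.5%, 83.3% and 59.0% in old 1 to old 4. Of the switched UMIs, B cells held 52.9% in young 1 but 0 in young 2 and old 1, and 0.593%, 25.3% and 1.54% in old 2, old 3 and old 4.

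**Figure D5:**
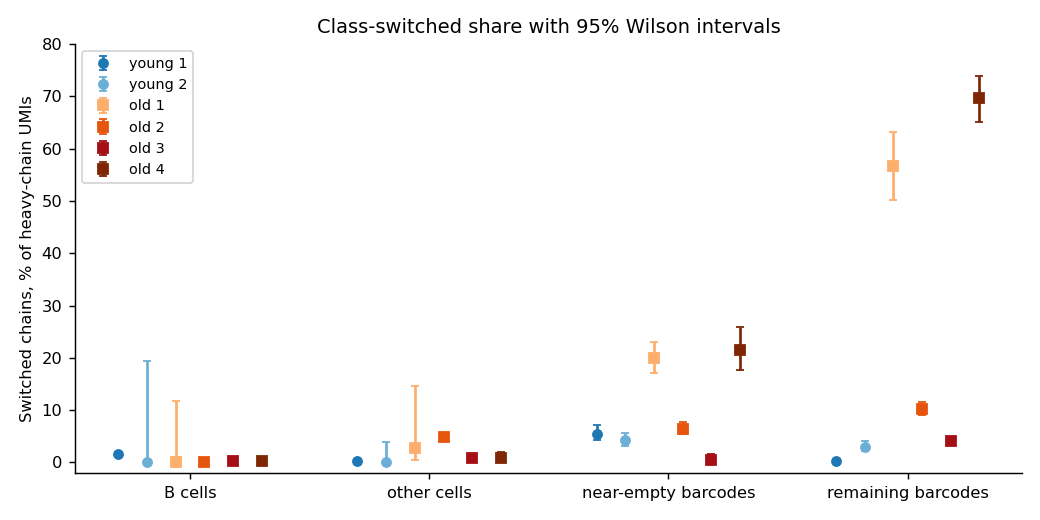
Class-switched chains (Igha, Ighg1, Ighg2b and Ighg2c) as a percentage of heavy-chain UMIs (y axis) by kind of barcode for each library, with 95% Wilson intervals (circles young, squares old). B cells of young 1 and of old 2 to old 4 stood at or below 1.63%, and remaining barcodes of old 1 and old 4 at 56.8% and 69.6%.

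Likeness of pattern was measured over 45 sums of UMIs by library and marker class, as Spearman's rho of log2(CPM + 1), and is a description only, since the sums share libraries and depths. The genes outside the set most like Jchain were Iglc3 (0.824), 1810046K07Rik (0.810), Il5ra (0.778), Pou2af1 (0.769) and Oosp1 (0.761). Il5ra encodes the interleukin 5 receptor chain and Pou2af1 a coactivator of immunoglobulin promoters. Those most like Ighm were Iglc3 (0.813), Syk (0.794), Bank1 (0.792), Pik3ap1 (0.787) and Napsa (0.777), of which Syk and Bank1 act in signalling from the B cell receptor. Ighm and Jchain had a rho of 0.702 with each other, and the member closest to Jchain was Iglc1 (0.827). Igha was less alike, at 0.398 with Jchain and 0.319 with Ighm.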

How the data were processed

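Single-cell libraries (10x 3′ v3.1) were made from the proximal PA of 2 young and 4 old mice. Per the labels and the study's methods, the authors trimmed reads with Cutadapt and counted them with STARsolo against GRCm38.p6. The deposited values are raw UMI counts for each gene and barcode. Whether strand was used is not given in the sources used here. Another young library that the study describes was not analysed here. A further B cell marker is not reported here. The members and gene lists were chosen with earlier results of these data known. Named genes were the members, the related chains, the leading variable gene of each library and kind of barcode, the 5 most like Jchain and Ighm, and, from each list, the gene with most UMIs and any called.

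Libraries were the replicates, and the tests set differences against the spread between them. Young 1, young 2 and old 2 shared barcodes beyond chance, so their independence is uncertain. Python scripts (numpy, scipy) formed sums per library and kind of barcode. edgeR 4.0.16 (R 4.3.3, TMM, robust quasi-likelihood F test, genes with at least 10 UMIs) was the main test, checked on simulated counts, and DESeq2 1.42.0 an alternative. B cell sums needed at least 10 cells. Standard errors were taken from the log2 difference and its F value. Shares were compared by exact permutation. Thinning drew 500 UMIs per cell with a fixed seed. Doublets were not called, and leaving out B cells with 2 or more UMIs of another class was an alternative. Depth was 6355125 to 50436562 UMIs per library.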

Additional observations from a re-analysis of the deposited data

Results flagged for a closer look

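In a group of 4 old libraries, a library was singled out where its distance to the nearest other exceeded Dixon's limit of 0.83 of the range. Of 28 such groups, 10 met it. The limit assumes independent, normally spread values, whereas these groups share libraries and cells, so this number cannot be set against a chance rate. A group with all other libraries at 0 meets it always, as for Ighg2b in B cells and Ighg2c in other cells. Old 2 was the highest of the old libraries in other cells for Ighm (1125 CPM), Ighd (29.7), Ighg2c (57.7), Iglc1 (143), Iglc2 (84.6) and Jchain (316). Its 24 other cells rich in immunoglobulin held 4569 chain UMIs. Old 2 was also the highest for Ighd in near-empty barcodes (21.7) and for B cells with a switched and no unswitched chain after thinning (0.212%, with the other old libraries at 0). Old 3 was the highest for Ighg2b in B cells (15.3) and for Jchain in near-empty barcodes (109).

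The remaining barcodes, which entered no comparison, held Igha above the level of both young libraries (2.13 and 29.1 CPM) in old 1 (248), old 2 (48.1) and old 4 (269). In old 1 these UMIs came from 2 barcodes, and in old 4, 290 of 295 came from 1.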

How the results depend on the processing

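The comparisons rest on 2 young libraries, of which young 2 gave 15 B cells, so they cannot show modest differences. Of 122 values of the main results under an alternative, 92 stayed, 24 moved and 6 changed sign. A share stayed if it kept its sign. A number of genes called stayed if it was equal or close to the main one, 0 against 0 included, and otherwise moved. Of 347 values for members, 300 kept their sign and side of the threshold and 43 changed sign. The other 4 passed the threshold (Jchain in B cells with library sizes only and with DESeq2, Ighg2c in other cells with no filter, Igha in near-empty barcodes without old 4). No member that changed sign was called in either state. The cause of these moves was not tested. No paired analysis was possible because replicate numbers only name libraries. The lambda share has no value, since Igkc was at 0.

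The number of genes called in B cells was 33, and 0 at 1000 UMIs and 500 genes, 1 with a gate of 3 UMIs, 21 without possible doublets, 8 after thinning and with library sizes only, 2 with DESeq2, 14 with filterByExpr, 18 with no filter, 1 among genes in over 5% of cells of 3 libraries, 12 with a covariate for barcode sharing (young 1, young 2 and old 2) and 0 with libraries of at least 30 B cells (chosen after seeing the data). Leaving out a library gave 0 (young 2) to 317 (old 2), where a lone young library is assumed to vary like the old ones. In other cells the count was 472 with DESeq2, 922 with no filter and 0 to 9 (without old 2) on leaving out a library. In near-empty barcodes it was 26 with DESeq2, 259 with no filter, 1 with the covariate and 0 to 223 (without old 4) on leaving out a library.

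The switched share in B cells differed by -1.47 to 0.162 points on leaving out a library, by -2.96 at 1000 UMIs and by -0.0537 without the barcode richest in switched UMIs in each library (chosen after seeing the data), the Ighd share by -3.30 to 1.94 and by 0.149 without possible doublets, the B cell percentage by -30.4 to 6.18, and cells with switched chains alone by -0.326 to 0.0530 and by 0.160 without thinning. In each case the sign turned without young 1. The switched share in other cells differed by 1.42 to 2.74 points on leaving out a library, 1.12 at 1000 UMIs, 4.42 after thinning and 0.263 without that barcode (the last 2 chosen after seeing the data).

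In B cells, Ighd turned to -0.0115 at 1000 UMIs, -0.24 with a gate of 3 and -0.31 with libraries of at least 30 B cells, and ran from -0.31 to 10.20 on leaving out a library. Iglc1 turned to -0.20 at 1000 UMIs and with a gate of 3, -0.0633 with the covariate and -0.19 with at least 30 B cells, and ran from -0.19 to 1.95. Iglc2 turned to 0.0478 without possible doublets, 0.0481 with no filter and 0.00558 with DESeq2, and ran from -0.41 to 0.73. Igha ran from -1.64 to 6.81 and Ighg2b from -5.59 to 5.43, positive without young 1.

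In other cells, Ighm turned to -0.71 and Iglc1 to -1.83 at 1000 UMIs, Ighd to 1.15 and Iglc2 to 1.25 with the covariate. On leaving out a library, Ighm ran from -2.57 to 2.66, Ighd from -5.39 to 2.19, Iglc1 from -5.02 to 4.46, Iglc2 from -5.39 to 1.5 and Jchain from -3.43 to 3.51, each lowest without old 2. Ighm was also below 0 without young 2. In near-empty barcodes, Ighd turned to 0.68 with the covariate and ran from -3.67 to 0.11. Iglc1 turned to -0.40 at 10 to 100 UMIs, -0.75 with library sizes only, -0.41 with DESeq2, -0.44 with filterByExpr and -0.0435 with no filter, and ran from -0.75 to 0.71. Iglc2 turned to 0.94 at 2 to 50 UMIs, 0.54 without barcodes kept as cells in another library (chosen after seeing the data) and 0.28 with the covariate, and ran from -1.29 to 1.30.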
